A study of Mus musculus with 617 samples.

Results

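Synaptic vesicle release genes are described here by 7 members, Syt1, Syt4, Snap25, Vamp2, Syp, Rab3a and Cplx1, chosen by gene symbol and matched to 7 of the 43628 mouse gene IDs that each expression table lists. RNA was measured in single cells by SMART-seq2 with Tn5 tagmentation, and the deposited values are FPKM, fragment counts scaled for transcript length and sequencing depth. The cultured cells came from 1 female and 1 male embryonic stem (ES) line from crossing C57BL/6J females with CAST/EiJ males, each taken through 4 states. The female line gave 60 cells in 2i with LIF, 68 in serum with LIF, 79 Epi cells (kept in Activin A with FGF2) and 39 cells of motor neuron cultures. The male line gave 51, 52, 63 and 35 cells of the same states. Motor neuron cultures were made from the ES lines as embryoid bodies with retinoic acid and SAG, an agonist of smoothened, and the labels' protocol states that interneurons also form. Each culture is therefore 1 sample of 1 line, and sex and line are the same factor. The other cells were a second female Epi culture kept for 7 passages (41 cells), E3.5 inner cell mass (ICM, 23) and E4.5 epiblast (23) of the same cross with no sex given, and E5.5 epiblast of C57BL/6J parents (20 female and 63 male).

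Nerve terminals release transmitter when a vesicle fuses with the plasma membrane. Vamp2 (synaptobrevin) on the vesicle and Snap25 on the plasma membrane zip together with syntaxin into the SNARE complex that drives fusion. Complexin 1 (Cplx1) clamps and primes this complex, and synaptotagmin 1 (Syt1) triggers fusion when calcium enters. Synaptotagmin 4 (Syt4) is a relative that binds calcium poorly and is found on dense-core and other vesicles, synaptophysin (Syp) is an abundant vesicle membrane protein that binds Vamp2, and Rab3a is a small GTPase that brings vesicles to the release site. Neurons share this machinery, so it marks a neuron but not which kind, and neuroendocrine cells use much of it too. The repressor REST binds the RE1 element and keeps many such genes low outside neurons.

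Upstream sequences are shown for members whose RefSeq promoter window (GRCm38.p6, 250 bases before and 50 after a transcript start) held a searched motif, so that the shared and unshared letters can be seen. Windows were searched for 4 of the 7 members (Syt1 and Rab3a with 2 starts each, Syp and Cplx1 with 1). No window was searched for Snap25, Vamp2 and Syt4, so motifs before these genes were not tested. Motifs were read on both strands. The E-box was searched as CAGCTG. The TATA box was searched as TATAAA. The left arm of the RE1 element was searched as TTCAGCACC. Its right arm was searched as GGACAG, alone and 2 bases behind the left arm. Capitals mark CAGCTG in the first 3 sequences and the reverse complement of GGACAG in the last. Bases inside an untranslated region that GENCODE annotates for the gene are left out. Each sequence is written 5' to 3' on the gene's strand.
Cplx1, chr5:108550028-108550277, minus strand: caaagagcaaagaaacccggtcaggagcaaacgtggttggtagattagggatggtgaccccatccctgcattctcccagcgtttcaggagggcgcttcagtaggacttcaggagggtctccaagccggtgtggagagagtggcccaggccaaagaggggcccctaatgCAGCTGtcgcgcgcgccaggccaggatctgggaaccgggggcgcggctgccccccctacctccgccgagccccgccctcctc
Rab3a, second start, chr8:70754869-70755101, plus strand: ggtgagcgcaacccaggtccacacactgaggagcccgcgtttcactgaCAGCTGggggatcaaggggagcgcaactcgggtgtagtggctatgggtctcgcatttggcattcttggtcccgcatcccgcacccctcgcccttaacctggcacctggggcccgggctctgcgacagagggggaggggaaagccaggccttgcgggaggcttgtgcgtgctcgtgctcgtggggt
Syt1, inner start, chr10:109009112-109009361, minus strand: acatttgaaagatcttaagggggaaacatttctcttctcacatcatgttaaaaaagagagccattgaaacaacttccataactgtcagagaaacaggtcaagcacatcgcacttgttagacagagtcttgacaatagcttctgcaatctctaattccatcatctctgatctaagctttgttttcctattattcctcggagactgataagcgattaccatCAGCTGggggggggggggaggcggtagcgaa
Syt1, outer start, chr10:109010983-109011225, minus strand: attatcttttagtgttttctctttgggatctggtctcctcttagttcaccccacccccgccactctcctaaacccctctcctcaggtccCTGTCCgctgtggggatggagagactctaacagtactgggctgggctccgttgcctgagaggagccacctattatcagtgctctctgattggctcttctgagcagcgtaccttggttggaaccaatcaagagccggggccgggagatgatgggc
CAGCTG lay from 82 to 77 bases before the Cplx1 start (bases -82 to -77), at bases -185 to -180 of Rab3a and at bases -31 to -26 of the inner Syt1 start. It occurs in 16.3% of all 32851 RefSeq windows of 300 bases. GGACAG was found in the outer Syt1 window, at bases -161 to -156, and occurs in 22.2% of all windows. None of the 6 member windows held TATAAA (13.6% of all windows), TTCAGCACC (0.371%) or both RE1 arms 2 bases apart (0.0122%), which says only that these letters are absent from these windows.

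In a median cell of the ES, Epi and motor neuron cultures, 1 fragment on a transcript of 1 kb was worth 0.336 to 0.492 FPKM. The threshold of 1 FPKM used here for a detected gene thus stands for a few fragments on 1 kb. It stands for more on a longer transcript, and the longest of each member ran from 1556 (Rab3a) to 4880 bases (Snap25). Shares of different members therefore rest on unequal numbers of fragments. A fragment on 1 kb was worth 0.14 FPKM at E3.5, 0.284 at E4.5, and 1.01 (female) and 0.827 (male) at E5.5. In 7 female and 7 male motor neuron cells a single such fragment was worth more than 1 FPKM. Motor neuron cells had a median of 9313 (female) and 9234 (male) genes at 1 FPKM or more, close to the serum ES cells with 9444 and 9645. Their median FPKM sum was higher, at 1332430 and 1478620 against 862527 and 922930 in serum ES cells. The median change of all genes between motor neuron and serum ES cultures was 0.71 on the log2 scale, 0.55 against Epi and 0.66 against 2i ES cells. After scaling cultures to the same upper quartile it was 0 against serum ES cells, -0.03 against Epi cells.

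The motor neuron cultures were mixed. Tubb3, a neuronal tubulin, was detected in 37 of 39 female and all 35 male cells, and Isl1, a motor neuron transcription factor, in 17 and 22. Mnx1, a defining motor neuron factor, was near 0 (means of 1.59 and 0.877 FPKM, 3 and 5 cells), and Lhx3 averaged too little to be tested. Sox17, an endoderm factor, was detected in 19 female and 32 male cells, and the pluripotency factor Pou5f1 in 17 female and 2 male cells. The summed level of 10 endoderm markers ranged from 0 to 1275 FPKM over female cells and from 4.81 to 4992 over male cells. In serum ES cells that sum averaged 4.1 (female) and 3.97 (male). The summed level of 12 neuron markers ranged from 25.1 to 20412 FPKM over female and from 15.4 to 26520 over male motor neuron cells. In serum ES cells the neuron marker sum already averaged 252.5 (female) and 203.2 (male). The share of cells with Tubb3 is therefore not read here as a share of neurons. Against serum ES cells 11 of 12 neuron markers, 4 of 5 tested motor neuron markers and 7 of 8 tested endoderm markers rose. Of 7 pluripotency markers 4 fell. Beside these, 30.1% of all genes were higher and 2.7% lower. All 5 motor neuron, 3 neuron and 3 endoderm markers averaged under 1 FPKM over the 6 other cultures. They were tested only through the motor neuron cultures, so their rise is no support. Of the others, 8 of 9 neuron and 5 of 5 endoderm markers rose, beside 26.1% of all such genes. Among 3 tested neuroendocrine markers Sst (4.39, means of 2.91 and 111.1 FPKM) and Chga (3.62) rose, and 1 of the 3 did after either scaling. Of these 3 markers 1 averaged under 1 FPKM over the 6 other cultures. Sst was detected in 3 female and 8 male cells, with a median of 0 in both cultures, and the highest summed level of the 6 neuroendocrine and pancreas markers, 3873 FPKM, was in 1 male cell. The part of these other cells in the changes below was not tested. Fewer neurons in a culture and less RNA per neuron cannot be told apart in a culture mean.

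The synaptotagmins Syt1 and Syt4 were low in the ES and Epi cultures. The mean level of Syt1 was 0.00584 (female) and 0.00215 FPKM (male) in 2i ES cells, 0.0529 and 0.00828 in serum ES cells, 0.264 and 0.0042 in Epi cells, and 23.8 and 61.7 in motor neuron cultures. Syt1 was detected in 0 of 60 and 0 of 51 2i ES cells, which allows a share of up to 5.0% and 5.88% by the limit of 3 cells (exact Clopper-Pearson upper bounds of 5.96% and 6.98%), and in 15 of 39 and 20 of 35 motor neuron cells. These shares were 38.5% (exact Clopper-Pearson 95% interval 23.4 to 55.4%) and 57.1% (39.4 to 73.7%), and intervals here cover counting error only. Over female motor neuron cells the lowest Syt1 value was 0, the median 0.0585 and the highest 197 FPKM, and over male cells 0, 7.1 and 312. The median female cell thus had almost no Syt1, and both means lay well above the medians.

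Syt4 had the highest mean of the 7 genes in both motor neuron cultures and was the most widely detected after Vamp2 in the female culture. Its mean was 0 (listed at 0 in all 60 cells) and 0.0422 FPKM in 2i ES cells, 0.521 and 0.501 in serum ES cells, 0.362 and 0.109 in Epi cells, and 209 and 334 in motor neuron cultures. It was detected in 32 of 39 female and 29 of 35 male motor neuron cells (82.1% and 82.9%), against 11 of 68 and 6 of 52 serum ES cells (16.2% and 11.5%). The female cells ran from 0 over a median of 7.03 to 2702 FPKM and the male cells from 0 over 31.7 to 1462. Detection was thus alike in both lines, while the level within detected cells covered a wide range.

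Of the SNARE proteins, Snap25 was low before differentiation and Vamp2 was present everywhere. Snap25 averaged 0.00973 and 0.00875 FPKM (female and male) in 2i ES cells, 0.315 and 0.785 in serum ES cells, 0.807 and 1.84 in Epi cells, and 89.2 and 243.4 in motor neuron cultures. The female motor neuron cells had a median of 0.391 and a highest value of 718 FPKM, the male cells 48.7 and 855. Snap25 was detected in 16 of 39 and 23 of 35 of them (41.03% and 65.7%), and in 13 of 79 and 15 of 63 Epi cells (16.5% and 23.8%). A processed pseudogene, Gm14053, lies inside Snap25 on the other strand and stayed between 0.471 and 1.53 FPKM in the 8 cultures.

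Vamp2 averaged 7.67 and 9.65 FPKM in 2i ES cells, 9.43 and 8.56 in serum ES cells, 14.5 and 17.7 in Epi cells, and 61.4 and 143.1 in motor neuron cultures. It was detected in 84.6 to 92.4% of the cells of each ES and Epi culture of that table, in 87.2% of female motor neuron cells and in all 35 male ones. The share of cells with Vamp2 therefore hardly separated the states, and its level did. In male motor neuron cells the lowest Vamp2 value was 6.09, the median 74.6 and the highest 524 FPKM. In female cells these were 0, 20.3 and 368 FPKM, which overlaps the range of serum ES cells (0 to 40.4 FPKM in the female line).

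Syp, an X-linked gene, averaged 0.473 and 0.299 FPKM in 2i ES cells, 0.619 and 0.855 in serum ES cells, and 33.3 and 91.4 in motor neuron cultures. Its Epi cultures stood apart from each other, with 0.762 FPKM in the female and 10.2 in the male line. In the male Epi culture 26 of 63 cells (41.3%) had Syp, with values up to 90.6 FPKM, against 21 of 79 female Epi cells (26.6%) and a highest value of 4.89. The female Epi culture of 7 passages, normalised apart, had Syp in 10 of 41 cells (24.4%) with a mean of 2.25 FPKM. The male Epi culture also had higher endoderm markers than the female one (a mean sum of 107.9 against 7.8 FPKM), higher mesenchyme and muscle markers (201.9 against 10.1 FPKM) and lower pluripotency markers (896.8 against 6028 FPKM), and their part in the Syp difference was not tested. An antisense gene that overlaps Syp, Gm14703, averaged 0.112 FPKM in the male Epi and 0.674 in the female Epi culture. In motor neuron cells Syp was detected in 17 of 39 female and 22 of 35 male cells, with highest values of 319 and 371 FPKM.

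Rab3a was at a low level in every culture before differentiation. Its mean was 3.83 and 3.33 FPKM in 2i ES cells, 2.47 and 5.4 in serum ES cells, 4.91 and 2.4 in Epi cells, and 123.1 and 237.6 in motor neuron cultures. It was detected in 20.6 to 59.5% of the cells of the 6 ES and Epi cultures, and in 69.2% of female and 88.6% of male motor neuron cells. The highest value was 1129 FPKM in a female and 841 in a male motor neuron cell, with medians of 6.05 and 87.2. Rab3a shares 29 bases with Mpv17l2 on the other strand, which averaged 32.1 to 56.6 FPKM in the ES and Epi cultures and 85.7 and 89.9 in the motor neuron cultures. The sources used here do not state that strand was used in the counting, so reads of the 2 genes cannot be told apart there.

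Cplx1 averaged 0.0289 and 0.0208 FPKM in 2i ES cells, 1.148 and 1.89 in serum ES cells, 1.2 and 2.43 in Epi cells, and 34.6 and 147.2 in motor neuron cultures. It was detected in 1 of 60 and 0 of 51 2i ES cells and in 13 of 68 and 16 of 52 serum ES cells (19.1% and 30.8%). In motor neuron cultures it was detected in 13 of 39 and 23 of 35 cells (33.3% and 65.7%). The female median was 0 and the highest value 261.8 FPKM, and the male cells reached 647 with a median of 32.5.

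**Figure D1:**
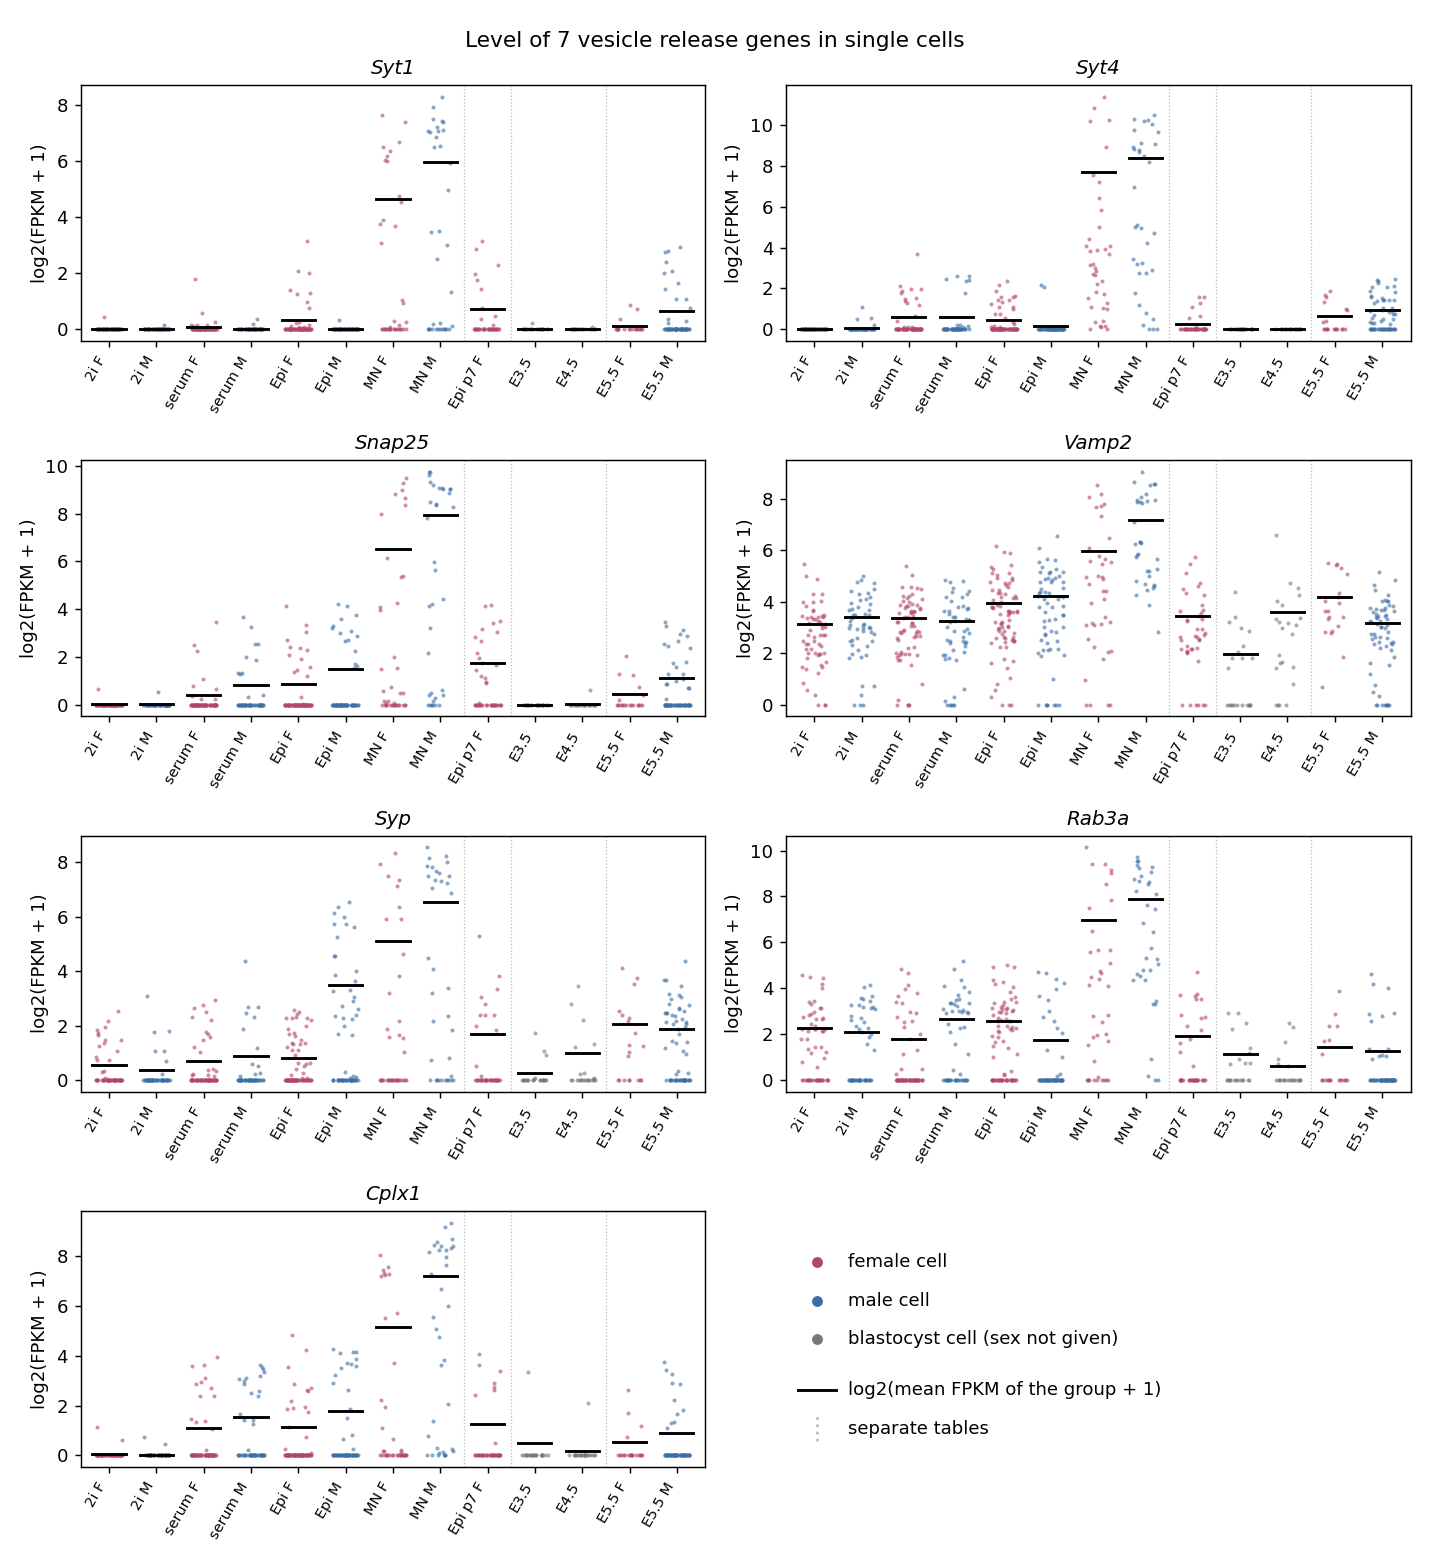
Each point is 1 cell and the vertical axis is log2(FPKM + 1), with 1 panel per gene and 13 groups of cells along the horizontal axis (F female, M male, MN motor neuron culture, p7 the Epi culture of 7 passages); black bars are log2(mean FPKM + 1), and dotted lines separate tables that were normalised apart. Motor neuron cells cover the whole range from 0 to the highest values of each gene, while Vamp2 is present in nearly all groups and Syp is raised in part of the male Epi cells.

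**Figure D2:**
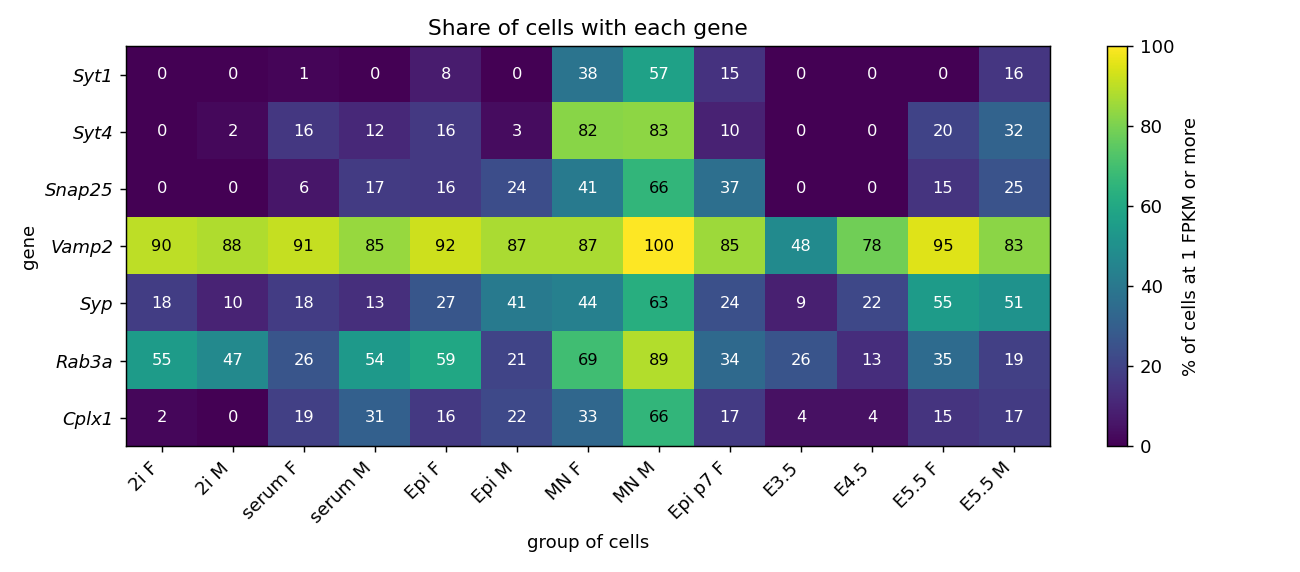
Percentage of cells at 1 FPKM or more for each of the 7 genes (rows) in the 13 groups (columns), with the rounded percentage in each field. Vamp2 is the most widely detected gene outside the motor neuron cultures, and Syt4 is detected in 82 and 83% of motor neuron cells.

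Levels between genes can be set side by side because FPKM is per length. In the female motor neuron culture the order of the mean level was Syt4 (209 FPKM), Rab3a (123.1), Snap25 (89.2), Vamp2 (61.4), Cplx1 (34.6), Syp (33.3) and Syt1 (23.8). In the male culture it was Syt4 (334), Snap25 (243.4), Rab3a (237.6), Cplx1 (147.2), Vamp2 (143.1), Syp (91.4) and Syt1 (61.7). All 7 means were higher in the male culture, by 1.601 times (Syt4) to 4.26 times (Cplx1), and Snap25 and Rab3a, and Cplx1 and Vamp2, changed places between the lines. Each gap between neighbours in either order was smaller than the SD over cells of both genes, for example 568 FPKM for Syt4 and 254.5 for Rab3a in the female culture. That SD is a spread among cells and not the error of a mean, and the order was not tested. With 1 culture per sex there is no test of the difference between the lines. The median gene was also lower in the female culture, by 0.20 on the log2 scale.

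The comparison of states used the mean of each culture, log2(mean FPKM + 1), in 1 limma fit of the 8 cultures over 15504 genes that averaged at least 1 FPKM. Calls needed a p below 0.05 after Benjamini-Hochberg adjustment over all these genes and a log2 difference of 1 or more in either direction, with 2 cultures per state. All 7 members passed the filter, but Syt1, Syt4 and Snap25 did so through the motor neuron cultures alone (0.0563, 0.256 and 0.628 FPKM over the 6 other cultures), so their calls are no independent support. The other 6 cultures averaged 11.3 FPKM for Vamp2, 3.72 for Rab3a, 2.2 for Syp and 1.12 for Cplx1.

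All 7 genes rose from serum ES to motor neuron cultures. In this comparison 30.1% of all genes were called higher and 2.7% lower, so a rise was common. Of the 4 members at 1 FPKM or more over the 6 other cultures 4 rose, beside 26.1% of all such genes. The calls of Syt1, Syt4 and Snap25, and the rank of Syt4 given next, are no independent support. Syt4 rose by 7.45 on the log2 scale (SE 0.33, limma adjusted p = 0.00111), and 0.103% of the genes tested had a larger change. Snap25 rose by 6.60 (SE 0.52, adjusted p = 0.00211). Syt1 rose by 5.26 (SE 0.48) and Rab3a by 5.19 (SE 0.48), both at a limma adjusted p of 0.00233. Syp rose by 5.02 with the widest error (SE 0.88, adjusted p = 0.00844), and Cplx1 by 4.86 (SE 0.66, adjusted p = 0.00432). Vamp2, the member already present in ES cells, rose by 3.25 (SE 0.41, adjusted p = 0.00384). Each gene rose in both lines, Syt4 by 7.11 in the female and 7.80 in the male line, and Vamp2 by 2.58 and 3.91.

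Against Epi cultures, which share the motor neuron cultures with the comparison above, 7 of 7 were called higher, beside 21.9% of all genes higher and 2.6% lower. The 7 include Syt1, Syt4 and Snap25, whose calls are no independent support. The log2 changes were 7.75 for Syt4, 6.03 for Snap25, 5.26 for Rab3a, 5.13 for Syt1, 4.73 for Cplx1, 3.66 for Syp and 2.48 for Vamp2. Syp had the weakest call (limma adjusted p = 0.0276), with a rise of 4.28 in the female and 3.05 in the male line. Against 2i ES cultures, again with the same motor neuron cultures, 7 of 7 were called higher, beside 29.6% of all genes higher and 3.96% lower. The same limit holds for Syt1, Syt4 and Snap25 there. The changes ran from 3.30 for Vamp2 to 8.02 for Syt4, with 6.15 for Cplx1.

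These calls rest on a part of the cells. When a culture was summarised by the median over its cells in place of the mean, an alternative added after the values were seen, only Syt4 stayed called in each of the 3 comparisons. The Syt4 change was then 4.02 (limma adjusted p = 0.0304 against serum ES cells), and Vamp2 changed by 2.30 (adjusted p = 0.0831) and Snap25 by 3.06 (adjusted p = 0.319). Against serum ES cells 1173 of all 15504 genes were called higher in this way. Syt4 had passed the filter only through the motor neuron cultures, so its call is no independent support. Syp lost its call against serum ES cells without the female serum ES, the male serum ES or the male motor neuron culture (6 of 7 called). A fit of only the 4 motor neuron and Epi cultures called no gene of the whole table, and so 0 of 7 against Epi. After upper-quartile scaling 57.4% of the calls against serum ES cells were higher, compared with 91.8% before it, and all 7 genes were still called higher. Beside them, 14.1% of all genes tested were higher after this scaling. The titles of motor neuron cells fall into 2 runs of numbers per line (22 and 17 female cells, 20 and 15 male cells), whose meaning the labels do not give. With the cells of either run alone all 7 genes were called in each of the 3 comparisons. Against serum ES cells 4435 of 15421 genes were higher with the lower run and 4174 of 15457 with the higher run. Against Epi cells these numbers were 3218 and 2994, and against 2i ES cells 4386 and 4132.

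Before differentiation the 7 genes were not called. From 2i to serum ES cells 0 of 7 were called, beside 0.00645% of all genes higher and 0.0129% lower (3 genes in all). From serum ES to Epi cells 0 of 7 were called, beside 0.0322% higher and 0.00645% lower (6 genes in all). No member reached an unadjusted limma p under 0.05 in either. Cplx1 had the largest difference from 2i to serum, 1.28 (SE 0.66, adjusted p = 0.648), with 1.06 in the female and 1.503 in the male line. Syp differed by 1.36 from serum to Epi (SE 0.88, adjusted p = 0.731), of which the female line gave 0.12 and the male line 2.59.

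**Figure D3:**
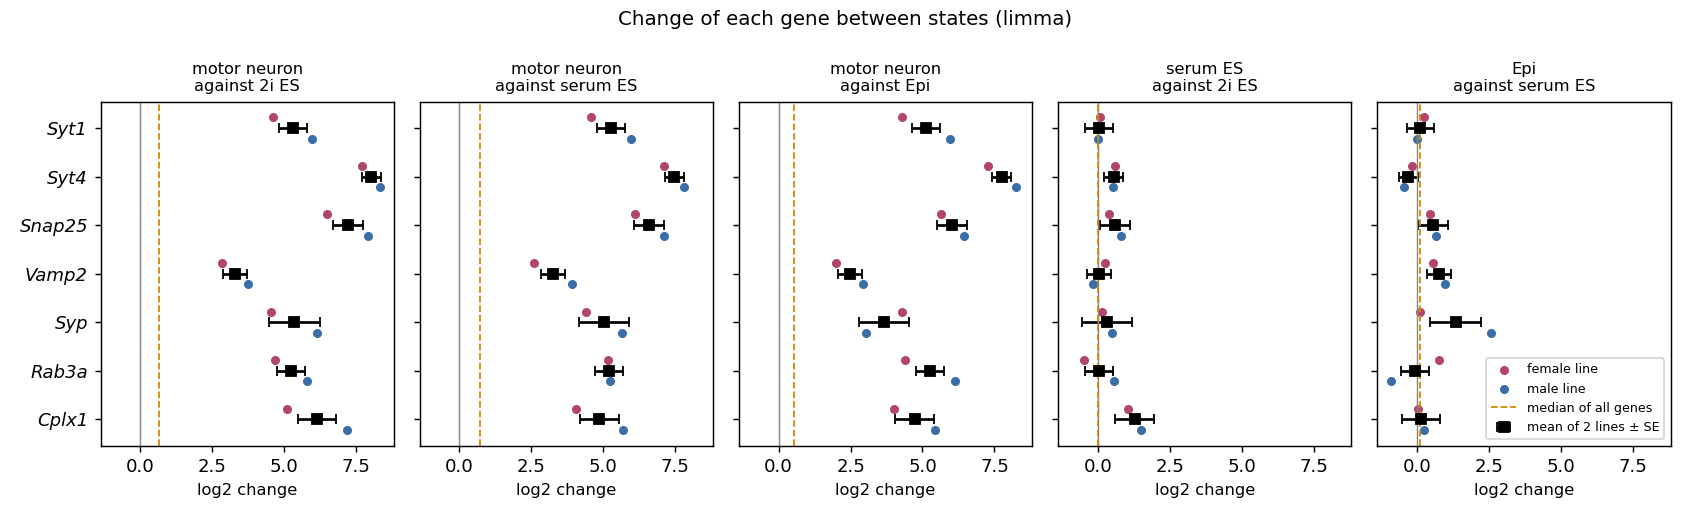
Log2 change of each gene in 5 comparisons of states: black squares are the limma estimate with its standard error, red and blue points the female and male line, and the dashed line the median change of all genes tested. In the 3 comparisons with motor neuron cultures both lines lie to the right of the dashed line for all 7 genes, and in the other 2 the lines lie between -0.91 and 1.503 except for Syp in the male line from serum to Epi (2.59).

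Across single cells the 7 genes appeared together. At 1 FPKM or more, all 7 were detected in 10 of 39 female (25.6%) and 17 of 35 male motor neuron cells (48.6%). At least 5 were detected in 14 (35.9%) and 23 (65.7%) cells, and 2 or fewer in 9 (23.1%) and 7 (20%). In the ES and Epi cultures of the same table no cell had 6 or 7 of the genes, and 1 female and 1 male Epi cell had 5. The median cell had 2 of the genes in 5 of these cultures and 1 in the male 2i culture. The mean of log2(FPKM + 1) over the 7 genes was at least 7 in 7 female and 15 male motor neuron cells, between 4 and 7 in 2 and 4, and below 4 in 30 and 16. Outside the motor neuron cultures the highest such mean in any cell was 2.52, in a male Epi cell.

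Within the motor neuron cultures every pair of the 7 genes varied in the same direction. Spearman's rho across the 39 female cells ranged from 0.47 (Syt4 and Rab3a) to 0.73 (Syp and Cplx1) over 21 pairs, with a median of 0.62. Across the 35 male cells it ranged from 0.71 (Snap25 and Vamp2) to 0.87 (Snap25 and Cplx1), with a median of 0.80. These are descriptions across cells of 1 culture, which share their preparation and the mix of cell types above. Snap25 and Cplx1 were detected together in 22 male cells, in 1 cell each alone, and both missed in 11. In the female culture they were together in 10, Snap25 alone in 6, Cplx1 alone in 3 and neither in 20. Vamp2 was found in every cell of both cultures that had Syt1, Snap25, Syp, Rab3a or Cplx1. Syt4 was detected without Cplx1 in 19 female and 6 male cells, and no cell had Cplx1 without Syt4.

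**Figure D4:**
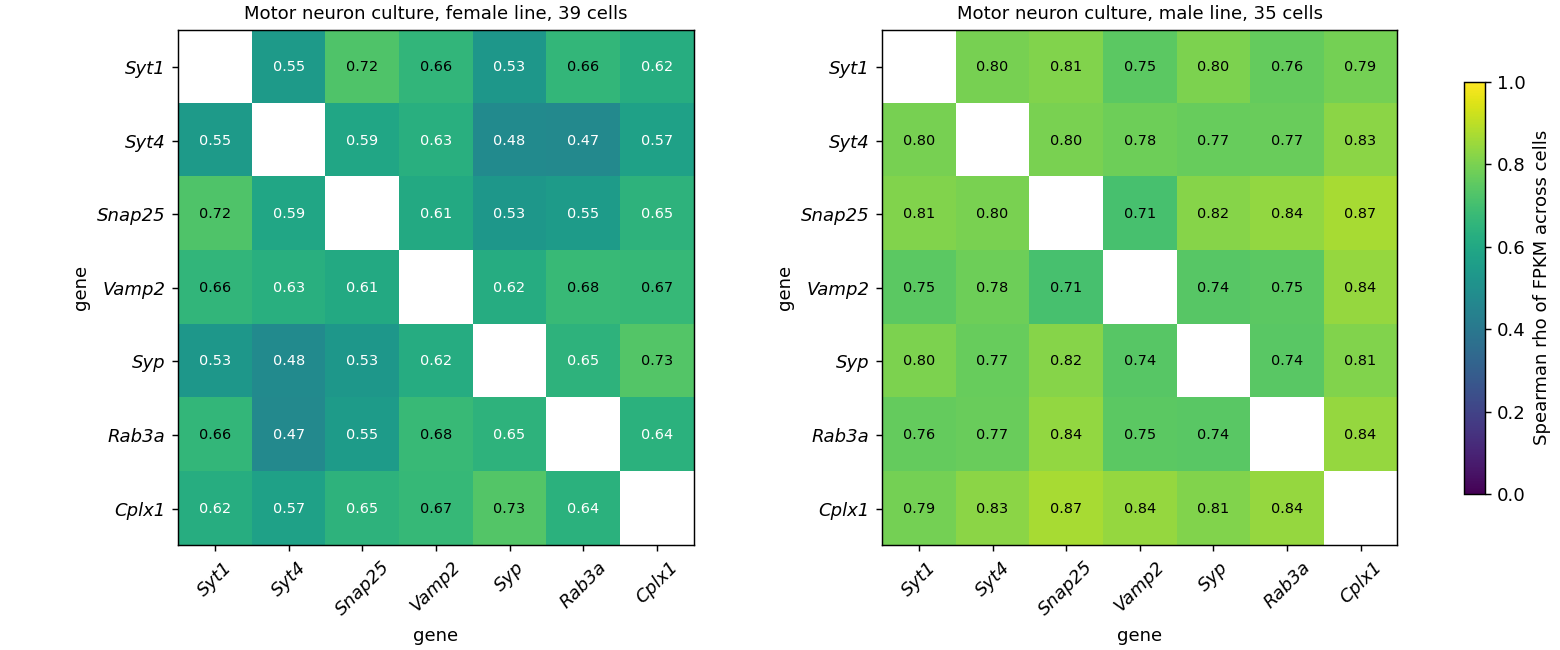
Spearman's rho of FPKM between each pair of the 7 genes across the cells of the female (left) and male (right) motor neuron culture, on a scale from 0 to 1. All 21 values lie between 0.47 and 0.73 in the female culture and between 0.71 and 0.87 in the male culture.

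The 7 genes followed neuronal markers and ran against endoderm markers. The mean of the 7 genes had a rho of 0.71 (female) and 0.91 (male) with the mean of 12 neuron markers, and of 0.80 and 0.89 with 9 dense-core granule genes. With 7 motor neuron markers rho was 0.46 and 0.86. With 10 endoderm markers it was -0.39 and -0.85, and with 7 pluripotency markers -0.22 and -0.42. With 6 neuroendocrine and pancreas markers it was 0.63 and 0.83. With the number of detected genes per cell rho was 0.17 and 0.47, and with the FPKM sum of the cell 0.46 and 0.54, so cells with a larger sum also had more of the 7 genes. Syt1 was detected in 9 of the 12 female and 18 of the 22 male cells with Slc18a3, the vesicular acetylcholine transporter. Snap25 was detected in 8 of the same 12 and 21 of the same 22. Of the 19 female cells with Sox17 4 had Syt1, and of the 20 without it 11 did. In the male culture all 3 cells without Sox17 had Syt1, Snap25 and Cplx1, and 17 of the 32 with it had Syt1.

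**Figure D5:**
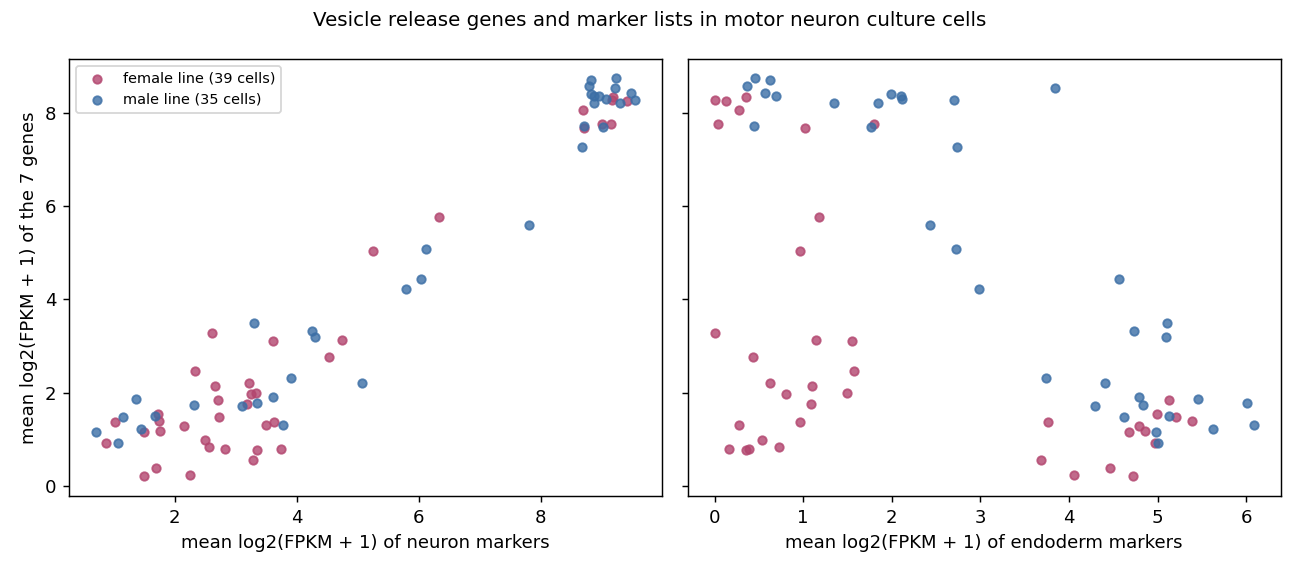
Mean log2(FPKM + 1) of the 7 genes (vertical axis) against the mean of 12 neuron markers (left) and 10 endoderm markers (right), 1 point per motor neuron culture cell, 39 female and 35 male. Cells high in the 7 genes are those high in neuron markers, with 7 female and 15 male cells at a mean of 7 or more, and male cells high in endoderm markers are low in the 7 genes.

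Other genes of vesicle release were described by 8 lists with 56 genes, of which 40 were abundant enough to test. Against serum ES cells 27 rose, 0 fell and 13 were not called, beside 30.1% of all genes higher. Of these 40 genes 16 averaged under 1 FPKM over the 6 other cultures and so passed the filter through the motor neuron cultures, against 1607 of all 15504 genes, and of the other 24 genes 12 rose. After upper-quartile scaling 22 of 40 rose and 0 fell, beside 2182 of 15504 genes higher, and after rescaling each cell to the same sum 18 of 38 rose, beside 2166 of 15273. Against Epi cells 26 of 40 rose (21.9% of all genes higher) and against 2i ES cells 31 of 40 (29.6%), with 0 lower in both. Of 7 SNARE genes and partners 5 rose, among them the syntaxin Stx1a (3.93, from 2.66 and 3.37 to 49.9 and 72.2 FPKM). Of 8 tested priming and active zone genes 5 rose, led by Cadps (3.55) and Erc2 (2.71). Of 5 other synaptotagmins tested 3 rose, with Syt11 (4.70) and Syt5 (3.02) at the top, and Syt2 and Syt7 were too low to test. In these lists in turn 3 of 7, 4 of 8 and 1 of 5 averaged under 1 FPKM over the 6 other cultures. Of the rest 2 of 4, 1 of 4 and 2 of 4 rose. Among all genes at 1 FPKM or more in those cultures 26.1% rose.

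Among other vesicle membrane proteins 6 of 7 rose, with Syngr3 (synaptogyrin 3, 4.17) and Syn1 (synapsin 1, 3.98) at the top, and after upper-quartile scaling 4 did. Of the other complexins and Rab3 genes 1 of 4 rose, Rab3c (3.11). Of 5 recycling genes 4 rose, led by the clathrin adaptor Snap91 (4.01) and dynamin 1, Dnm1 (3.66). Beside these counts 30.1% of all genes were higher. In these lists in turn 2 of 7, 2 of 4 and 2 of 5 averaged under 1 FPKM over the 6 other cultures. Of the rest 4 of 5, 0 of 2 and 2 of 3 rose. Among all genes at 1 FPKM or more in those cultures 26.1% rose. Both tested transmitter transporters rose, Slc18a3 (5.80, to 32.6 and 157 FPKM) and the monoamine transporter Slc18a2 (2.404), and both had passed the filter only through the motor neuron cultures, so their count is no support. The transporters for glutamate, Slc17a6, Slc17a7 and Slc17a8, and for GABA and glycine, Slc32a1, were too low to test, at 0 to 0.233 FPKM in the motor neuron cultures. Of 2 calcium channel genes tested 1 rose, Cacna1b (2.08), beside 30.1% of all genes. Cacna1b was not called after upper-quartile scaling or after rescaling the cells.

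Of 12 genes listed as broadly expressed relatives of the 7 genes 6 rose against serum ES cells, beside 30.1% of all genes. Vamp8 (3.02) and Vamp4 (2.01) had the largest rises among them. After scaling 1 (upper quartile, 2182 of 15504 genes higher) or 2 (rescaled cells, 2166 of 15273) of the 12 rose. The median change of these 12 was 1.32, beside 0.71 for all genes. Snap23, the widely used relative of Snap25, was not called (limma adjusted p = 0.0666, 24.1 and 28 FPKM in serum ES, 44.9 and 80.7 in motor neuron cultures). Across motor neuron cells the mean of this list ran against the 7 genes, with a rho of -0.56 in the female and -0.60 in the male culture. All 8 tested dense-core granule genes rose, led by Scg5 (6.92) and Cpe (6.27), under either scaling too. Of these 8 genes 5 averaged under 1 FPKM over the 6 other cultures and so had to differ to be tested, and their count is no support.

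Of 7 genes of the REST repressor complex 2 fell and 2 rose against serum ES cells, beside 2.7% of all genes lower and 30.1% higher. Those that fell were Rest, which fell by 2.23 on the log2 scale (limma adjusted p = 0.0317), and its partner Rcor2, which fell by 1.499 (adjusted p = 0.0463). Rcor1 (1.18) and Hdac2 (1.53) rose, which neither scaling kept as a call. After upper-quartile scaling 4 of the 7 were lower and 0 higher, beside 10.4% of all genes lower and 14.1% higher. After rescaling the cells 3 were lower and 0 higher, beside 6.36% lower and 14.2% higher. Against Epi cells 1 of the 7 rose and 0 fell, beside 21.9% of all genes higher and 2.6% lower. Against 2i ES cells 1 rose and 1 fell, beside 29.6% higher and 3.96% lower. Rest averaged 30.4 and 45.5 FPKM in serum ES cells, 26.3 and 8.43 in Epi cells, and 11.3 and 4.38 in motor neuron cultures. Within the motor neuron cultures Rest and the members varied in opposite directions, with a rho for Cplx1 of -0.47 (female) and -0.60 (male) and for Syt4 of -0.31 and -0.58. The mean of the whole list of 7 complex genes had a rho of 0.04 (female) and -0.04 (male) with the mean of the members. Rest was detected in 8 of the 13 female and 11 of the 23 male cells with Cplx1. Over all cells of the female culture Rest was detected in 33 of 39.

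The genes most like the 7 in both cultures were sought among 7094 genes that averaged at least 10 FPKM and were detected in at least 30% of cells of each motor neuron culture, by the smaller of the 2 rho values with the mean of the 7. The closest were Tuba1a, a tubulin of neurons (0.85 female and 0.93 male), Ncam1, a neural adhesion molecule (0.85 and 0.84), Syt11 (0.83 and 0.85), Map1b, a microtubule protein (0.82 and 0.85), and Jak1 (0.82 and 0.83). Nnat, Npdc1, Atp6v0e2, Prkacb and Dbn1 followed, the last with 0.78 and 0.84. The most opposite were Dtymk, a kinase of thymidine nucleotide synthesis (-0.69 and -0.71), Avpi1 (-0.68 and -0.76), Tfpi (-0.72 and -0.68), Ptpn14 (-0.67 and -0.81) and Gstm2 (-0.67 and -0.79). The median gene had a smaller rho of -0.01.

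Single members had partly different neighbours by the same measure. Syt1 was closest to Ncam1 (0.80 and 0.83) and Atp6v0e2 (0.79 and 0.83), Syt4 to the neurofilament gene Nefm (0.80 and 0.84) and Rtn1 (0.76 and 0.81), and Snap25 to Mapk8ip1 (0.82 and 0.78) and Rprm (0.77 and 0.86). Vamp2 was closest to Gabarapl1 (0.79 and 0.80) and Atp6v0e2 (0.83 and 0.79), the latter a subunit of the pump that acidifies vesicles. Syp was closest to Gdap1 (0.77 and 0.76) and Cend1 (0.74 and 0.79), and Rab3a to Acot7 (0.85 and 0.83) and Syt11 (0.86 and 0.82). Cplx1 was closest to Fsd1 (0.78 and 0.85) and the granule protein gene Chgb (0.76 and 0.81).

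In embryo cells the 7 genes were low, and these tables were normalised apart, so levels are not tested against the cultures. At E3.5 and E4.5 Syt1, Syt4 and Snap25 were detected in 0 of 23 cells each, which allows a share of up to 13.0% by the limit of 3 cells (exact upper bound 14.8%). Vamp2 was detected in 11 of 23 ICM cells (47.8%) at 2.92 FPKM and in 18 of 23 E4.5 epiblast cells (78.3%) at 11.1 FPKM. At E5.5 Vamp2 averaged 17.3 FPKM in female and 8.02 in male cells, and Syp was detected in 11 of 20 and 32 of 63 cells at 3.12 and 2.67 FPKM. Syt1 was detected in 0 of 20 female E5.5 cells, in 10 of 63 male ones (15.9%, a mean of 0.574 FPKM) and in 6 of 41 cells of the female Epi culture of 7 passages (14.6%, a mean of 0.642 FPKM). Syt4 was detected in 4 of 20 female and 20 of 63 male E5.5 cells, at means of 0.548 and 0.918 FPKM over all cells. Over the detected cells alone the means were 2.11 and 2.49 FPKM. A fragment on 1 kb was worth 1.01 and 0.827 FPKM there, and less on the 3892 bases of Syt4. In the female Epi culture of 7 passages Snap25 was detected in 15 of 41 cells (36.6%) at 2.37 FPKM, the largest share for Snap25 outside the motor neuron cultures.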

How the data were processed

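The deposited tables hold FPKM per gene and cell, made by the authors with STAR 2.4.1, Cufflinks and Cuffnorm 2.2.1 against mm10, per the submitters' processing notes. The 4 tables (cultures, Epi cells of 7 passages, E3.5 with E4.5, E5.5) were treated as normalised apart, so tests stay within the culture table. Depth was read from the steps of low values. The members, the lists and the tests were chosen with earlier results of these data known. A culture was 1 sample: mean FPKM over its cells, log2(mean + 1), genes averaging at least 1 FPKM, limma 3.58.1 (R 4.3.3) with a mean-variance trend and 1 coefficient per state, checked on simulated data. Other values were computed with Python 3.11.15, numpy 2.4.6, pandas 2.3.3 and scipy 1.17.1. For shares of cells, 95% intervals are exact (Clopper-Pearson). The same 2 lines run through all states, per the labels, and the female minus male deviations of 15504 genes correlated with r from 0.06 to 0.16 over 6 pairs of states. With line as a replicate block 7 of 7 genes were called in each comparison with motor neuron cultures. Of all 15504 genes 4896 were higher with this block against serum ES, 3595 against Epi and 4730 against 2i ES cells. In each list at most 4 genes were named, the top 2 called in each direction by size, except 1 item that is not reported here, and the closest genes are the 10 most alike and 5 most opposite. Other genes were named after their values were seen, to describe cell makeup or transmitter type. Nothing in the labels says that cultures were repeated, so p-values measure the spread between the 2 lines.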

Additional observations from a re-analysis of the deposited data

Results flagged for a closer look

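Some of the 7 genes moved in opposite directions in the female and male line, which was not tested, as each line gave 1 culture per state. From 2i to serum ES cells Vamp2 differed by 0.27 on the log2 scale in the female line and by -0.16 in the male line. Over the same step Rab3a differed by -0.48 in the female and 0.56 in the male line. From serum ES to Epi cells Rab3a differed by 0.77 in the female and -0.91 in the male line. Syt1 differed by 0.26 in the female and -0.01 in the male line (-0.00585), with means under 0.3 FPKM throughout.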

How the results depend on the processing

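For each comparison 22 alternatives were run, 18 planned and 4 added after seeing the data (each run of motor neuron titles, shallow cells left out, median over cells). No called value of the 7 genes was reversed in sign. Of the values not called, 5 of 154 from 2i to serum ES cells and 8 of 154 from serum ES to Epi cells changed sign. Against serum ES, Epi and 2i ES cells 9, 24 and 8 of 154 values lost their call. With the median over cells 1 gene (Syt4) was called in each comparison with motor neuron cultures. In the fit of the 4 motor neuron and Epi cultures 0 were called, with 4152 of all genes at an unadjusted p under 0.05. Leaving out 1 culture in turn left 6 to 7 called in each of the 3 comparisons, the lost gene being Syp. Against Epi cells Syp also lost its call with no filter, after either scaling, and, together with Vamp2, when log2 values were averaged over cells. The replicate block changed no call of the 7 genes. Counts over all genes moved more: 5088 against serum ES cells ranged from 1582 (median over cells) to 5576, 3799 against Epi from 0 to 4443, and 5196 against 2i from 1827 (without the female 2i culture) to 5585. The 3 genes called from 2i to serum ranged from 0 to 38 with 1 culture left out and were most numerous with the median over cells, and the 6 from serum to Epi from 0 to 337 (without the female Epi culture). Upper-quartile scaling made 58.02% of calls against Epi and 58.4% against 2i higher, compared with 89.4% and 88.2%. The median pair correlation was 0.75 (female) and 0.86 (male) as Pearson's r of log2 values. A threshold of 5 FPKM moved 48 of 91 shares outside their interval and 0.1 FPKM moved 4. The planned use of the Epi culture of 7 passages in the fit was not run, because its table was normalised apart. Depth limits shares near 0.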
